A study of Mus musculus with 16 samples.

Results

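The BCL2 family of thymocyte survival was followed here through 10 genes in sorted mouse double-positive thymocytes. They were chosen by name from the known biology of the family, and each was found by its Ensembl identifier. They make up 10 of the 55335 gene identifiers in the libraries with an age and 10 of the 54532 in the libraries without one. Bcl2, Bcl2l1 (which encodes BCL-XL) and Mcl1 are the pro-survival members. Bax and Bak1 are the effectors, which open the outer membrane of the mitochondrion. Bcl2l11 (BIM), Bbc3 (PUMA), Pmaip1 (NOXA), Bad and Bid are the BH3-only members, which start the death programme by binding the others.

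Double-positive (DP) cells carry both CD4 and CD8 and are the thymus stage at which T cell receptors are tested. Most of them die unless a receptor signal of the right strength rescues them, and BIM is a main killer of those that react too strongly with self. DP cells are known to keep little BCL2 protein and to rely on BCL-XL and MCL1. BCL2 returns when a cell passes selection and becomes single positive.

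Total RNA of thymic DP cells sorted by flow cytometry was sequenced in 16 libraries. One set carried an age and a genotype and held 4 old WT, 3 young METTL3 KO and 3 young WT libraries. A further set carried a genotype and no age and held 3 METTL3 KO and 3 WT libraries. METTL3 is the enzyme that writes N6-methyladenosine on RNA. The sources used here give neither the ages in weeks, the strain and the sex nor the promoter or Cre behind the knockout. The labels do not name the animals behind the replicates, so a p-value reflects only how far these libraries vary, which may be technical in part. In 4 of the 5 groups, Xist, the RNA of the inactive X chromosome, passed 100 CPM (counts scaled by TMM and library size) in some libraries and not in others, so those libraries do not all come from 1 animal.

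Gene counts summed to 9781368 to 10307780 in libraries with an age, 10575795 to 13740694 in METTL3 KO and 15927134 to 16167074 in WT libraries without one. The Mettl3 count did not set the libraries labelled young METTL3 KO apart. They had 63.7 ± 1.33 CPM, against 63.8 ± 3.66 CPM in young WT (SD, n = 3 each), a log2 difference of 0.00 (edgeR adjusted p = 1). The METTL3 KO libraries without an age had 32.7 ± 5.82 CPM of Mettl3 and their WT counterparts 48.9 ± 4.96 CPM (SD, n = 3 each), a log2 difference of -0.58 (adjusted p = 0.0189), where the lower quartile of all genes was -0.61. The labels do not say which exons were removed, so a gene count is a partial check, and every statement on the libraries labelled young METTL3 KO goes by that label. The DP markers, among them Cd4, Cd8a, Cd8b1, Rag1, Rag2 and Dntt, were detected in every library. Old WT replicate 3 stood apart from the other old libraries in markers of other cells. Its 6 B cell markers summed to 1713 CPM, against 472 to 912 CPM in the other old libraries, and its 6 myeloid markers to 142 CPM, against 29.9 to 33.5 CPM. Values without it are given beside those of old WT below.

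On mm10, Bcl2 (ENSMUSG00000057329) lies on chromosome 1 at 106538178 to 106714274, Bcl2l1 on chromosome 2 at 152780668 to 152831728, Mcl1 on chromosome 3 at 95658788 to 95663176 and Bax on chromosome 7 at 45461697 to 45466898. Bak1 lies on chromosome 17 at 27019810 to 27029009, Bcl2l11 on chromosome 2 at 128126038 to 128162547 and Bbc3 on chromosome 7 at 16308393 to 16318205. Bad lies on chromosome 19 at 6941861 to 6951899 and Bid on chromosome 6 at 120891930 to 120916853, and Pmaip1 is ENSMUSG00000024521. Exons of Bad overlap Gpr137 by 524 bp, those of Bid overlap Bcl2l13 by 628 bp, those of Bak1 overlap Ggnbp1 by 437 bp and those of Bcl2 overlap D630008O14Rik by 558 bp, each on the other strand. Bax shares 192 bp with Gm45808 on its own strand. The strand setting of the counting is not given in the sources used here, so reads of such partners cannot be told apart from those of the members.

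The 250 bases before a RefSeq transcription start are shown for the 4 members with the smallest p in the knockout without an age, which moved in opposite directions within the pro-survival class. Of the 10 members, 9 have an entry in the RefSeq promoter table used (GRCm38.p6). Bcl2l1 has 3 starts in it, of which the one at the annotated end of the gene was taken. Each sequence runs 5′ to 3′ on the gene's strand, and capitals mark the E box CANNTG, the site bound by E proteins such as those of Tcf3 and Tcf12. The windows are chr1:106714291-106714540 (minus strand) for Bcl2, chr2:152831729-152831978 (minus strand) for Bcl2l1, chr3:95658471-95658720 (plus strand) for Mcl1 and chr7:45466899-45467148 (minus strand) for Bax.
Bcl2: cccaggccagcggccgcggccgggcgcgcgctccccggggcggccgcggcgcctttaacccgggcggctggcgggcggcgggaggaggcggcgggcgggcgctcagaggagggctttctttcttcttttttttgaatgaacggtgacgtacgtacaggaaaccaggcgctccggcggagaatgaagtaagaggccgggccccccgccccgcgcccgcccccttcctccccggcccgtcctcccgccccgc
Bcl2l1: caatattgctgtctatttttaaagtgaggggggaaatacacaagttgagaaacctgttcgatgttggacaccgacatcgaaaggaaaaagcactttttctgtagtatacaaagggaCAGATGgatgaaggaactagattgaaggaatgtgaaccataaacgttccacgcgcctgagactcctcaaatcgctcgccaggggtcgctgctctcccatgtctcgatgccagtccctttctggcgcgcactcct
Mcl1: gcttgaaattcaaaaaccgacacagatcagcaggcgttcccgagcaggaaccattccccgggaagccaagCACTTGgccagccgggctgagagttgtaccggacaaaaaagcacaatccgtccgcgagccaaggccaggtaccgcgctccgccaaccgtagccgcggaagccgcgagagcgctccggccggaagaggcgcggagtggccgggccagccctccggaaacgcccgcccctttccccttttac
Bax: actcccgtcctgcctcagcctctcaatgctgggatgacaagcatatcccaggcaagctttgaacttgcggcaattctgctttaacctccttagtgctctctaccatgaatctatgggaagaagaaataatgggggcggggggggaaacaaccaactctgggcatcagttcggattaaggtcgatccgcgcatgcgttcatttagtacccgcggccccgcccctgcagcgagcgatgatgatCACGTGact
The Bcl2 window held 0 E boxes and the windows of Bcl2l1, Mcl1 and Bax held 1 each. Among 32851 windows of the same length, 66.2% held at least 1. The GC box GGGCGG, counted on both strands, occurred 7 times before Bcl2, 0 times before Bcl2l1, 1 time before Mcl1 and 2 times before Bax, and 32.7% of all windows held it. The Bcl2 window was the richest in G and C of these 4, at 74.8%, and that of Bcl2l1 the poorest, at 47.6%, with a median of 52.4% over all windows. A half-site of p53, counted by its usual consensus, occurred 1 time before Bax, a gene known to respond to p53, and 7.13% of windows held it. The STAT site TTCNNNGAA occurred in none of these 4 windows, against 7.02% of all windows. A match of letters does not show that a factor binds, and its absence from a window says nothing about the factor.

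Within a library, levels were compared between genes as CPM per kb of exon. Mcl1 had the highest level of the 10 genes in all 5 groups. It stood at 192 ± 15.2 CPM per kb in old WT (n = 4), 176 ± 3.56 in young METTL3 KO and 167 ± 7.13 in young WT (SD, n = 3 each). Bcl2l1 came next in these groups, at 49.7 ± 3.95, 48.9 ± 3.91 and 48.9 ± 1.16 CPM per kb in the same order, and then Bak1, at 23.0 ± 2.95, 21.4 ± 0.274 and 21.6 ± 0.901. Libraries of neighbours in the order did not overlap from Mcl1 to Bcl2l1, from Bcl2l1 to Bak1 or from Bak1 to Bcl2l11 in any of the 3 groups with an age. Bcl2 had rank 9 of 10 in every group, at 4.42 ± 1.62 CPM per kb in old WT (n = 4), 3.35 ± 0.514 in young METTL3 KO and 3.08 ± 0.165 in young WT (SD, n = 3 each), and Pmaip1 had the lowest level in every group.

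Ranks in the middle depended on the group and on the length used. Bcl2l11 and Bid overlapped in old WT and young WT, and Bax overlapped Bad in all 3 groups with an age. With the longest transcript in place of all exons, Bcl2l11 passed Bak1 to take rank 3 in these 3 groups, and Mcl1, Bcl2l1, Bid, Bcl2 and Pmaip1 kept their ranks. In the set without an age, Bax stood at 51.1 ± 14.2 CPM per kb in METTL3 KO, above Bcl2l1 at 39.2 ± 6.73, though their libraries overlapped. In WT of that set the order was Bcl2l1 at 58.5 ± 7.98 and then Bax at 22.6 ± 4.34 CPM per kb, with no overlap (SD, n = 3 each). Levels are not tested across the sets, which were counted against different gene lists. The sets also differ in the share of entries not aligned (0.58% to 0.83% with an age, 50.49% to 52.22% without). Entries in no feature made up 47.46% to 51.23% with an age and 7.23% to 15.03% without.

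**Figure D1:**
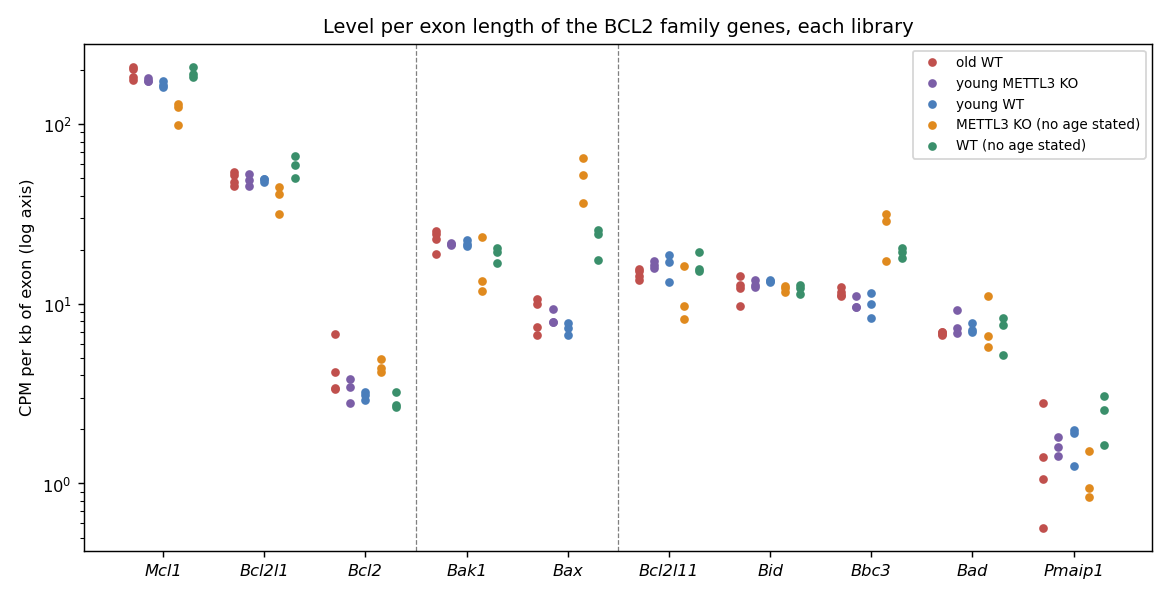
Level of each gene in CPM per kb of exon (log axis), one point per library, with groups side by side in the colours of the legend and dashed lines between pro-survival, effector and BH3-only members. Mcl1 lies above 90 CPM per kb in every library and Bcl2 below 7, and the METTL3 KO points without an age stand highest of all groups for Bax.

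Old WT libraries were set against young WT libraries to ask what age does to the family in DP cells. None of the 10 genes was called, meaning an adjusted p under 0.05 in edgeR's quasi-likelihood test with Benjamini-Hochberg adjustment over 14228 genes, of which 0.253% were called. At an unadjusted p under 0.05 stood 2 members, Bcl2 and Mcl1. These were also the 2 members whose groups did not overlap, both higher in old WT, where 9.78% of all genes did not overlap. Nothing particular to the family is read from 2 of 10 beside that share. The median log2 difference of the 10 genes was 0.05, and that of all genes 0.01.

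Bcl2 had 31.3, 30.6, 62.1 and 38.0 CPM in old WT libraries 1 to 4, against 29.6, 28.5 and 26.6 CPM in young WT. Every old library lay above every young WT one, though young METTL3 KO libraries reached 35.0 CPM. Old WT replicate 3 lay far above the others. The log2 difference was 0.52 ± 0.22 (SE, 95% interval 0.04 to 1.00, adjusted p = 0.381). Without old WT replicate 3, Bcl2 averaged 33.3 ± 4.06 CPM in old WT (SD, n = 3) and 28.2 ± 1.51 CPM in young WT (SD, n = 3), and the difference was 0.24 (adjusted p = 0.536), with the groups still apart. D630008O14Rik, whose exons overlap those of Bcl2, stood at 0.75, and at 0.53 without replicate 3 (adjusted p = 0.566). Replicate 3 was the library with the highest sums of mature thymocyte, B cell, myeloid and dendritic markers. Those of mature thymocytes summed to 243, 279 and 290 CPM in old WT libraries 1, 2 and 4 and to 241 to 256 CPM in young WT. All 6 mature thymocyte markers, among them Ccr7, S1pr1 and Il7r, had a log2 difference above 0, with a median of 0.84 and 0 called. Without replicate 3, 4 of the 6 were above 0, with a median of 0.06, and Ccr7 and S1pr1 stood at -0.21 and -0.13. B cell markers stayed higher without it, with 6 of 6 above 0, a median of 1.61 and none called. They summed to 669, 912 and 472 CPM in old WT libraries 1, 2 and 4 and to 435 to 488 CPM in young WT. Of the myeloid markers 6 of 6 (median 0.45) and of the dendritic markers 3 of 5 (median 0.46) were above 0 without it. The part of other cells in the Bcl2 values of replicate 3 and the other old libraries was not tested. In bulk RNA, fewer cells of a type cannot be told apart from less RNA per cell.

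Mcl1 encodes a short-lived protein that DP cells need throughout. It had 622, 712, 606 and 692 CPM in old WT, against 545, 569 and 594 CPM in young WT. The lowest old library was 606 and the highest young WT one 594 CPM, a narrow gap, and young METTL3 KO libraries reached 614 CPM. The log2 difference was 0.21 ± 0.09 (95% interval 0.02 to 0.40, adjusted p = 0.381), and 0.25 without old WT replicate 3 (adjusted p = 0.331). Bcl2l1 had 247, 208, 218 and 238 CPM in old WT, against 218, 227 and 228 CPM in young WT. The old libraries spanned the young ones, and the log2 difference was 0.02 ± 0.09 with an interval of -0.17 to 0.21 (adjusted p = 0.939), and 0.05 without replicate 3 (adjusted p = 0.891).

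Of the effectors, Bax had 15.7, 10.6, 16.9 and 11.7 CPM in old WT, against 10.5, 11.6 and 12.3 CPM in young WT. Old libraries 1 and 3 were high and the others lay within the young range. Its log2 difference was 0.26 ± 0.17 (adjusted p = 0.562), and 0.15 without replicate 3 (adjusted p = 0.774). Bak1 had 59.3, 61.4, 45.5 and 55.1 CPM in old WT, against 54.5, 50.3 and 51.5 CPM in young WT. Replicate 3 was the low one of the old libraries, and without it the groups did not overlap. The log2 difference of Bak1 was 0.09 ± 0.10 (adjusted p = 0.762), and 0.17 without replicate 3 (adjusted p = 0.486). Leaving out replicate 3 thus set 3 members apart, Bcl2, Mcl1 and Bak1, all higher in old WT, while 13.5% of all genes did not overlap in that comparison.

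None of the 5 BH3-only members was called with age. Bcl2l11 had 115, 122, 108 and 125 CPM in old WT, against 107, 136 and 150 CPM in young WT, a log2 difference of -0.16 ± 0.11 (adjusted p = 0.571). The young libraries varied more than the old ones and the groups overlapped. Bbc3 had 23.8, 24.8, 26.3 and 23.6 CPM in old WT, against 17.6, 21.1 and 24.4 CPM in young WT (0.23 ± 0.12, adjusted p = 0.478). All 4 old libraries were above the young mean, and the highest young library lay among them. Pmaip1, the gene with the lowest level, had 7.62, 3.87, 2.90 and 1.55 CPM in old WT from 16 to 78 counts, against 3.41, 5.41 and 5.24 CPM in young WT. Its spread was wide, and the interval of its log2 difference ran from -1.10 to 0.64. Bad was between 17.1 and 17.9 CPM in old WT and between 17.7 and 19.9 CPM in young WT (-0.09 ± 0.12, adjusted p = 0.793). Bid, which caspase-8 cuts to link death receptors to the mitochondrion, was between 34.6 and 50.5 CPM in old WT and between 46.7 and 48.4 CPM in young WT (-0.13 ± 0.11, adjusted p = 0.67). Without old WT replicate 3 the log2 differences were -0.12 for Bcl2l11, 0.20 for Bbc3, -0.11 for Pmaip1, -0.10 for Bad and -0.13 for Bid, with adjusted p from 0.606 to 0.948.

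**Figure D2:**
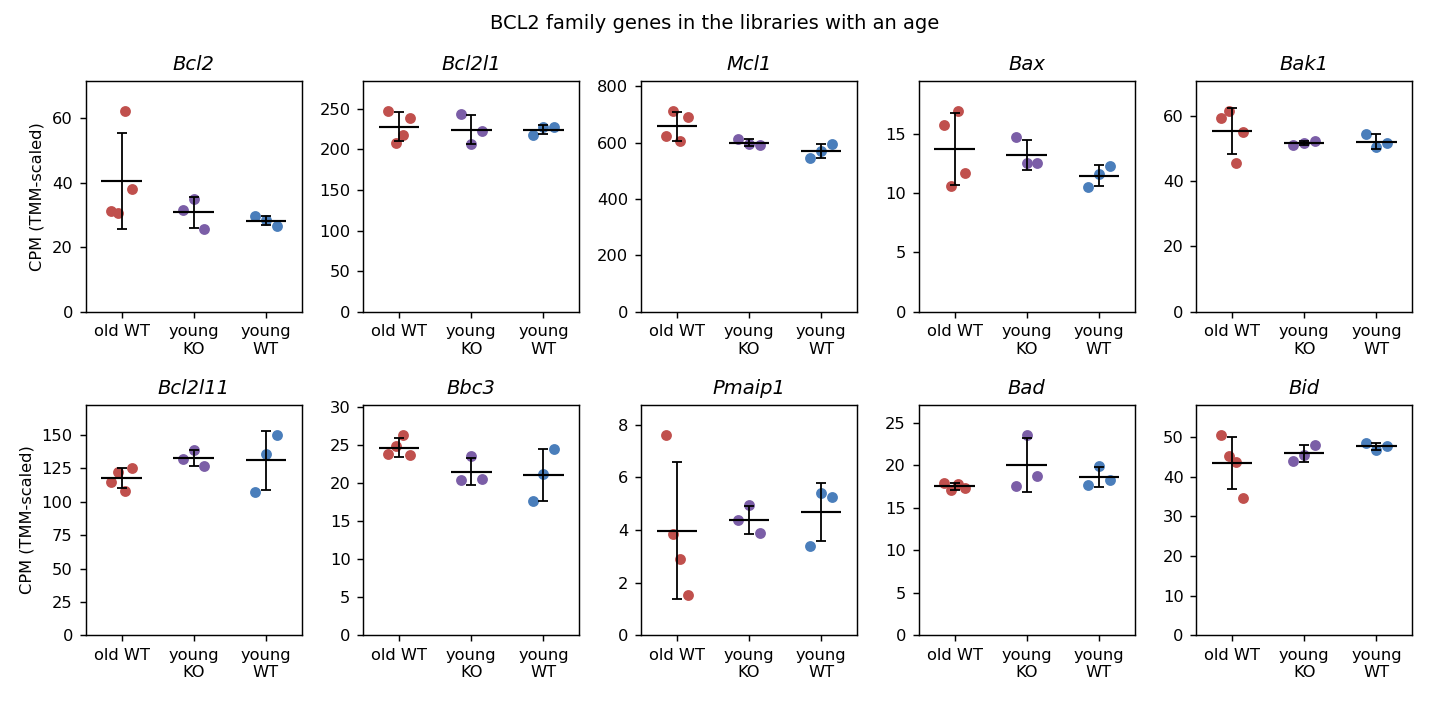
CPM after TMM scaling of each of the 10 genes in old WT, young METTL3 KO and young WT (one point per library, bar and whiskers the mean ± SD). For Bcl2 the single old point at 62.1 CPM is replicate 3, and for Mcl1 all 4 old points lie above the 3 young WT points.

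The libraries labelled young METTL3 KO were set against the same young WT libraries to ask what loss of METTL3 changes at a young age. None of the 10 genes was called, and neither was any of the 14228 genes tested (0.0%), each member having an adjusted p = 1. At an unadjusted p under 0.05 there were 88 genes and none of the 10. This fit and its intervals shared their estimate of spread with the old WT libraries. With only the 2 groups compared, 521 of 13780 genes had an unadjusted p under 0.05, and without old WT replicate 3 there were 167. None was called in either. Bax was the 1 member whose groups did not overlap, where 9.26% of all genes did not overlap. It had 14.7, 12.5 and 12.5 CPM in young METTL3 KO, against 10.5, 11.6 and 12.3 CPM in young WT, a log2 difference of 0.21 ± 0.18 (95% interval -0.19 to 0.60). The gap between the nearest libraries of the 2 groups was a fraction of the spread within either.

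Among the pro-survival genes, Bcl2 had 31.5, 35.0 and 25.7 CPM in young METTL3 KO, against 29.6, 28.5 and 26.6 CPM in young WT. Both the highest and the lowest of these 6 libraries were labelled KO, and the interval of the log2 difference was -0.39 to 0.63. Bcl2l1 had 243, 207 and 223 CPM in young METTL3 KO, against 218, 227 and 228 CPM in young WT (0.00 ± 0.09, interval -0.21 to 0.20). Mcl1 had 614, 596 and 591 CPM in young METTL3 KO, against 545, 569 and 594 CPM in young WT (0.08 ± 0.09, interval -0.13 to 0.28). Of the other members, Bak1 was between 51.0 and 52.3 CPM in young METTL3 KO and between 50.3 and 54.5 CPM in young WT, and Bcl2l11 was between 127 and 139 CPM in young METTL3 KO and between 107 and 150 CPM in young WT. Intervals of the log2 difference were -0.25 to 0.22 for Bak1, -0.24 to 0.27 for Bcl2l11, -0.26 to 0.32 for Bbc3, -0.18 to 0.38 for Bad and -0.32 to 0.21 for Bid. For Pmaip1, with 39 to 50 counts in young METTL3 KO and 35 to 54 in young WT, the interval ran from -1.02 to 0.84. That width leaves sizeable differences in either direction undecided, and the part of depth in it was not tested.

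**Figure D3:**
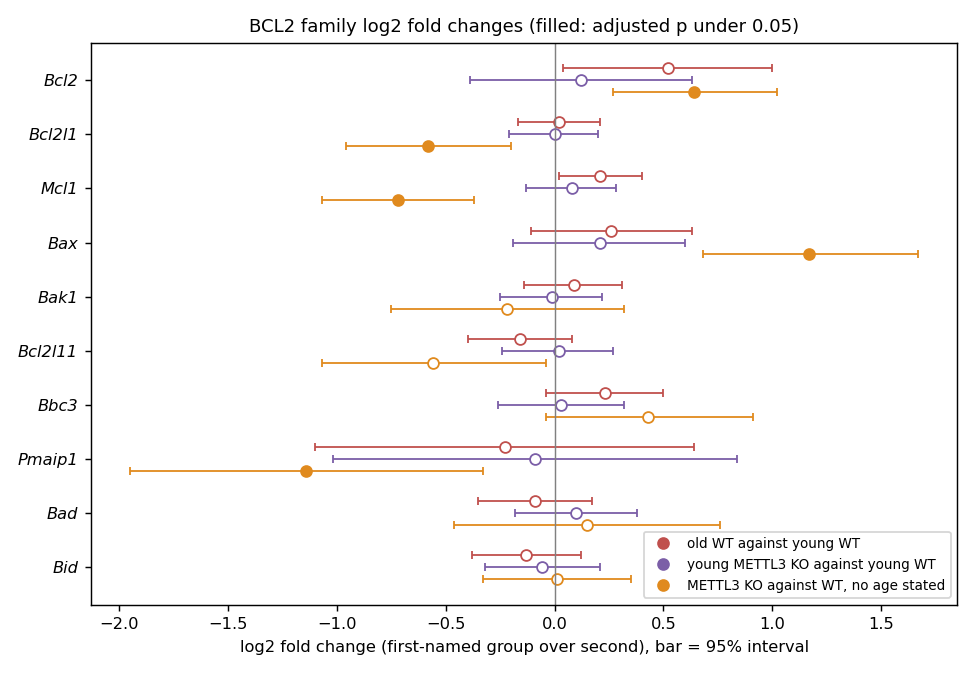
Log2 fold change of each gene with its 95% interval, for old WT over young WT, young METTL3 KO over young WT, and METTL3 KO over WT without an age (filled points have an adjusted p under 0.05). Filled points occur only in the comparison without an age, at Bcl2, Bcl2l1, Mcl1, Bax and Pmaip1.

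In the set without an age, METTL3 KO was set against WT, and 5 of the 10 genes were called. Bax (2.26-fold) and Bcl2 (1.56-fold) rose. Mcl1 (1.64-fold lower), Bcl2l1 (1.49-fold lower) and Pmaip1 (2.21-fold lower) fell. The pro-survival class was thus split, with Bcl2 higher and the 2 genes that DP cells depend on most lower. Over all 16432 genes tested, 53.9% were called, 29.9% higher and 24.0% lower, so a share of 5 in 10 is near the background and is no result about the family. Groups did not overlap for 5 members and for 63.8% of all genes.

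Mcl1 had 336, 428 and 442 CPM in METTL3 KO, against 647, 627 and 707 CPM in WT. Every KO library lay far under the lowest WT library. The log2 difference was -0.72 ± 0.16 (edgeR adjusted p = 0.00306), and this call held in all 14 alternatives tried, with differences from -0.90 to -0.62. Bcl2l1 had 146, 206 and 187 CPM in METTL3 KO, against 272, 303 and 230 CPM in WT, with KO replicate 1 the lowest. Its log2 difference was -0.58 ± 0.17 (adjusted p = 0.0146), and the call was lost without KO replicate 1 (-0.48, adjusted p = 0.0556).

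Bcl2 had 38.2, 40.4 and 45.1 CPM in METTL3 KO, against 25.1, 24.4 and 29.6 CPM in WT. The groups were apart, with a log2 difference of 0.64 ± 0.17 (adjusted p = 0.00823). The call was lost without WT replicate 1 (0.56, adjusted p = 0.0681) or 2 (0.54, adjusted p = 0.0639) and with no filter on low counts (0.46, adjusted p = 0.0828). Markers of mature thymocytes, in which BCL2 returns, summed to 170 to 214 CPM in METTL3 KO and 296 to 395 CPM in WT. Those of B cells, which also express Bcl2, summed to 691 to 1137 CPM in METTL3 KO and 526 to 625 CPM in WT, and 5 of 6 were called higher. All 5 dendritic cell markers were called higher as well, with sums of 91.7 to 166 CPM in METTL3 KO and 31.3 to 54.2 CPM in WT, while the 7 DP markers summed to 7737 to 10194 CPM in METTL3 KO and 14688 to 16211 CPM in WT. Over all genes 29.9% were called higher. With an offset for transcript length and GC content, given below, 3 of 6 B cell and 3 of 5 dendritic markers were called higher, where 27.0% of all genes were. The part of other cells in the Bcl2 difference was not tested.

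Bax had 81.8, 57.5 and 102 CPM in METTL3 KO, against 38.8, 40.3 and 27.8 CPM in WT, the largest rise among the 10 genes. The lowest KO library was above the highest WT library, and the log2 difference was 1.17 ± 0.23 (adjusted p = 0.0014). Bak1, which can stand in for Bax, had 28.3, 32.3 and 56.8 CPM in METTL3 KO, against 49.1, 46.8 and 40.8 CPM in WT (-0.22 ± 0.24, adjusted p = 0.476). KO replicate 3 lay above all WT libraries and the other KO libraries below them, and without that replicate Bak1 was called lower (-0.66, adjusted p = 0.0065). With all libraries, Ggnbp1, whose exons overlap those of Bak1, had a log2 difference of 0.97.

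**Figure D4:**
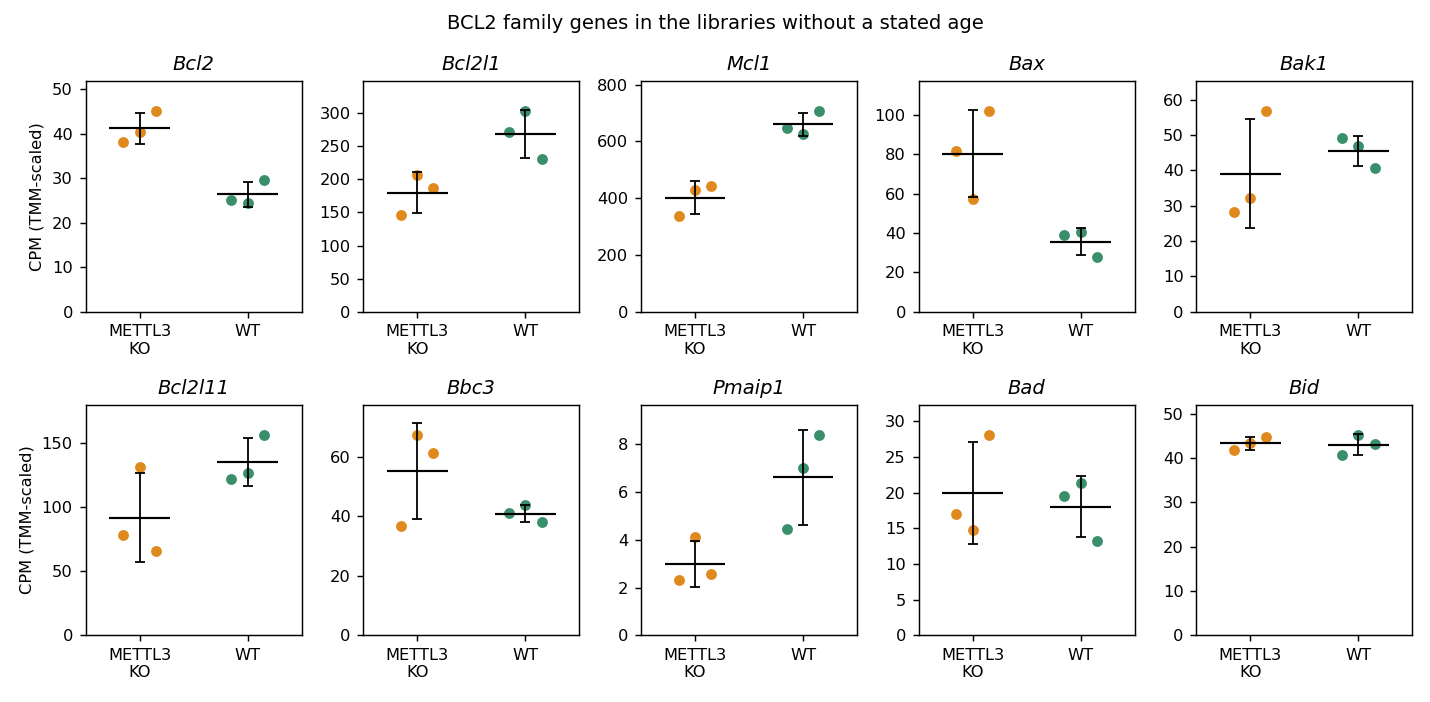
CPM after TMM scaling of each of the 10 genes in METTL3 KO and WT without an age (one point per library, bar and whiskers the mean ± SD). KO points lie wholly above WT points for Bcl2 and Bax and wholly below them for Bcl2l1, Mcl1 and Pmaip1.

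Pmaip1 had 2.31, 4.11 and 2.57 CPM in METTL3 KO from 28 to 47 counts, against 4.44, 7.0 and 8.40 CPM in WT from 68 to 129 counts. The highest KO library lay just under the lowest WT library, and the log2 difference was -1.14 ± 0.37 (adjusted p = 0.0215). This call was lost without WT replicate 2 (-1.15, adjusted p = 0.0551) or 3 (-0.99, adjusted p = 0.0758) and without KO replicate 1 (-1.02, adjusted p = 0.0653). Bcl2l11 had 77.8, 131 and 66.0 CPM in METTL3 KO, against 122, 126 and 156 CPM in WT (-0.56 ± 0.24, adjusted p = 0.0648). KO replicate 2 lay within the WT range, and without it the gene was called lower (-0.99, adjusted p = 0.0015). Bcl2l11 was also called lower with no filter on low counts (-0.72, adjusted p = 0.000561) and with limma-voom (-0.62, adjusted p = 0.0356). Bbc3 had 36.8, 67.3 and 61.3 CPM in METTL3 KO, against 41.1, 43.6 and 38.0 CPM in WT (0.43 ± 0.22, adjusted p = 0.114), and without KO replicate 1, the one low library, it was called higher (0.62, adjusted p = 0.0162). Bid was between 41.7 and 44.8 CPM in METTL3 KO and between 40.6 and 45.2 CPM in WT (0.01 ± 0.16, adjusted p = 0.968). Bad was between 14.7 and 28.1 CPM in METTL3 KO and between 13.2 and 21.4 CPM in WT (0.15 ± 0.28, adjusted p = 0.679). Gpr137, whose exons overlap those of Bad, was called higher (1.39 ± 0.22, adjusted p = 0.000469), and Bcl2l13, which overlaps Bid, lower (-1.74 ± 0.21, adjusted p = 0.00013).

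Over all tested genes the median log2 difference between METTL3 KO and WT without an age was 0.55 for genes whose longest transcript has up to 1700 bp, among them Bax and Bad. It was 0.20 for genes of 1701 to 2956 bp (Bcl2l1, Bak1, Bbc3, Pmaip1 and Bid), -0.04 for those of 2957 to 4456 bp (Mcl1) and -0.36 from 4457 bp up (Bcl2 and Bcl2l11), classes of nearly equal size. Members did not all follow their class, since Bcl2 rose and Bcl2l1 and Pmaip1 fell. In the age and young METTL3 KO comparisons the medians of such classes lay between -0.04 and 0.03. An offset for transcript length and GC content, chosen after the data were seen, took the Bax difference to 0.39 (adjusted p = 0.051) and that of Pmaip1 to -0.89 (adjusted p = 0.0555), so neither was called. With this offset Bcl2 stood at 1.21 (adjusted p = 0.000253), Bcl2l1 at -1.05 (adjusted p = 0.000232) and Mcl1 at -0.75 (adjusted p = 0.00131), all in the same direction as before. Bak1 was then called lower (-0.78, adjusted p = 0.00374), as was Bid (-0.37, adjusted p = 0.0493). Bbc3 stood below 0 in place of above it, at -0.09 (adjusted p = 0.734), and Bcl2l11 nearer to 0, at -0.19 (adjusted p = 0.4). KO and WT libraries of this set differed in other ways too. Gene counts made up 27.28% to 29.46% of entries in METTL3 KO and 36.97% to 37.26% in WT. Entries in no feature made up 11.85% to 15.03% in METTL3 KO and 7.23% to 7.6% in WT. Xist passed 100 CPM in 2 of 3 METTL3 KO and 0 of 3 WT libraries. The part of depth, RNA quality and sex in these differences was not tested.

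The difference between METTL3 KO and WT without an age was then set against that between young METTL3 KO and young WT in 1 fit of 12 libraries. This interaction was called for 3 of the 10 genes and for 36.9% of 16557 genes. Bax had 1.13 ± 0.28 on the log2 scale (edgeR adjusted p = 0.00595), Mcl1 -0.62 ± 0.15 (adjusted p = 0.00556) and Bcl2 0.69 ± 0.19 (adjusted p = 0.0113). The share is close to the background, and the 2 sets also differ in their processing. The Mcl1 interaction was called in all 20 alternatives, with values from -0.89 to -0.61. That of Bcl2 was lost in 9 of 20 (0.34 to 0.55, adjusted p from 0.0513 to 0.216): with no filter, without METTL3 KO replicate 2 or 3, and without any 1 of the 6 young libraries, where the median of all genes was 0.02 to 0.04 in place of 0.14. That of Bax was lost with the length and GC offset (0.39, adjusted p = 0.114). Bcl2l1 had -0.41 ± 0.19 (adjusted p = 0.103) and was called in 11 of 20 alternatives, with values from -0.95 to -0.34.

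Ratios between members within a library do not depend on scaling between libraries and are given as log2 ratios of counts per kb of exon, with no test. A difference between groups that follows transcript length or GC content still enters them. Bcl2l1 over Bcl2 averaged 3.55 ± 0.51 in old WT (n = 4), 3.88 ± 0.29 in young METTL3 KO and 3.99 ± 0.11 in young WT (SD, n = 3 each). The lowest old value, 2.81, was that of replicate 3, and without it old WT averaged 3.8 ± 0.17 (SD, n = 3). Without an age, the ratio was 2.93 to 3.35 in METTL3 KO and 3.96 to 4.63 in WT. BCL-XL transcripts per kb of exon thus outnumbered those of Bcl2 by 7.62 to 10.2 times in METTL3 KO and by 15.5 to 24.8 times in WT of that set, with no overlap. These multiples rest on exon lengths of 4586 bp for Bcl2l1 and 9157 bp for Bcl2, where the longest transcripts have 2568 and 7191 bp. With the length and GC offset, the log2 difference between METTL3 KO and WT was -1.05 for Bcl2l1 and 1.21 for Bcl2.

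Bcl2l11 over Mcl1, a death inducer over a survival protein that binds it, was -3.78 to -3.67 in old WT, -3.45 to -3.33 in young METTL3 KO and -3.58 to -3.21 in young WT. All 4 old libraries lay below all 6 young ones, and old WT had an SD of 0.05. The share of other gene pairs that separate in this way was not computed, so nothing particular to this pair is read from it. In that ratio the small differences of both genes with age, lower for Bcl2l11 and higher for Mcl1 and neither called, add up. Without an age it was -3.98 to -2.94 in METTL3 KO and -3.64 to -3.41 in WT, so that the KO libraries lay on both sides of WT. Bcl2l11 over Bcl2l1 averaged -1.76 ± 0.14 in old WT (n = 4), -1.56 ± 0.16 in young METTL3 KO and -1.60 ± 0.22 in young WT (SD, n = 3 each), with overlap. Bax over Bcl2 was 0.66 to 1.55 in old WT, 1.06 to 1.5 in young METTL3 KO and 1.05 to 1.42 in young WT, and 3.05 to 3.72 in METTL3 KO and 2.45 to 3.26 in WT without an age, with overlap in each comparison. With the length and GC offset the log2 difference without an age was 0.39 for Bax and 1.21 for Bcl2, so the direction of that ratio depends on the offset.

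**Figure D5:**
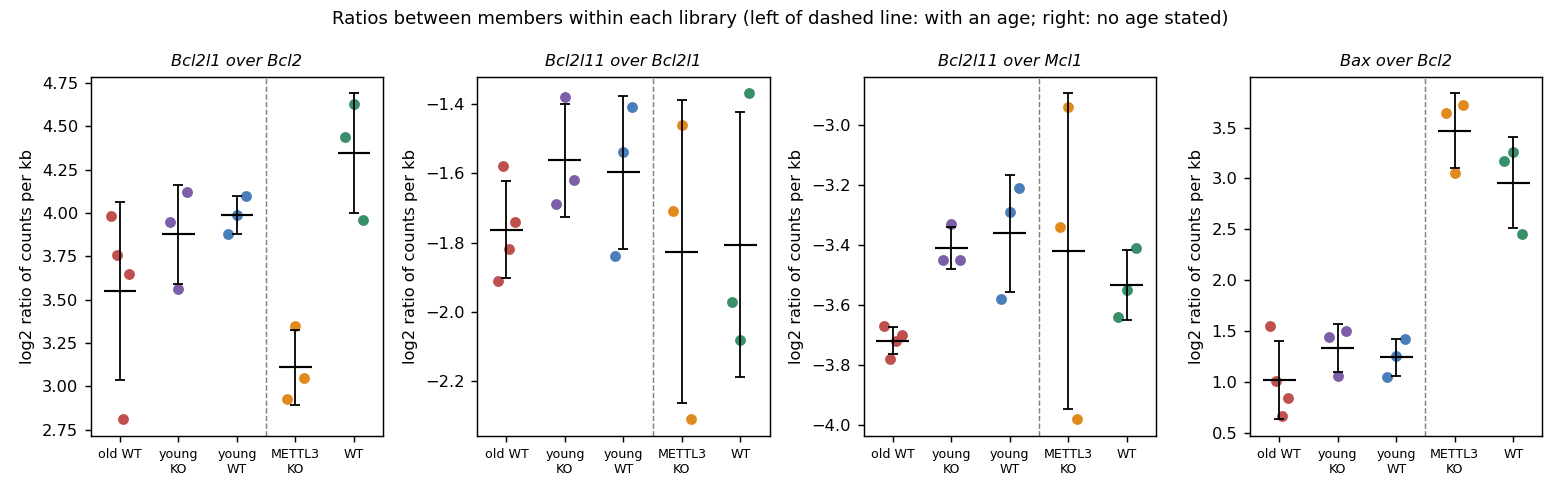
Log2 ratio of counts per kb of exon between pairs of members in each library (bar and whiskers the mean ± SD, dashed line between the sets with and without an age). For Bcl2l11 over Mcl1 the 4 old WT points lie below the young points, and for Bcl2l1 over Bcl2 the METTL3 KO points without an age lie below those of WT.

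The other genes of the pathway were taken from lists of 68 genes in 6 classes. With age, 0 of 59 tested were called. The smallest p-values belonged to Tnfsf10, the death ligand TRAIL (0.71 ± 0.14, adjusted p = 0.0765), Tnfrsf1a, a receptor for TNF (0.39 ± 0.09, adjusted p = 0.142), and Bmf, a further BH3-only gene (-1.03 ± 0.25, adjusted p = 0.21). Tnfsf10 had 15.3, 21.1, 20.3 and 21.4 CPM in old WT, against 11.7, 12.7 and 11.4 CPM in young WT. Bmf had 89.5, 108, 85.8 and 147 CPM in old WT, against 149, 254 and 254 CPM in young WT. The groups did not overlap for either gene, though by a narrow margin for Bmf. Further values were 0.29 ± 0.09 for Mdm2, which targets p53 for removal (adjusted p = 0.296), 0.29 ± 0.10 for Birc3, an inhibitor of apoptosis gene (adjusted p = 0.324), and 1.09 ± 0.40 for Nr4a3, induced by receptor signals (adjusted p = 0.347). Without old WT replicate 3, Nr4a3 stood at 0.58 (adjusted p = 0.3), Tnfsf10 at 0.70 and Tnfrsf1a at 0.43 (adjusted p = 0.0932 each), Bmf at -0.93 (adjusted p = 0.283), Mdm2 at 0.32 and Birc3 at 0.21. Of 9 death receptor genes tested, 9 had a log2 difference above 0 (median 0.20) and none was called, where the median of all genes was 0.01. Of 7 genes listed as outer membrane partners, among them Opa1 of the inner membrane, 0 were above 0 (median -0.08) and none was called. Without replicate 3, 8 death receptor genes (median 0.23) and 1 outer membrane partner (median -0.05) were above 0, and none of the 59 was called. In young METTL3 KO, 0 of 59 were called, at an unadjusted p under 0.05 there were also 0, and the largest class medians were 0.09 and -0.05.

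Without an age, 28 of 61 such genes were called in METTL3 KO against WT, 4 higher and 24 lower, where 29.9% and 24.0% of all genes were. With the length and GC offset, 5 of the 61 were called higher and 23 lower, where 27.0% and 24.6% of all genes were. The 12 genes of caspases and the apoptosome had 5 lower and 0 higher. Apaf1, the scaffold of the apoptosome, had 39.6, 52.5 and 39.2 CPM in METTL3 KO, against 108, 102 and 120 CPM in WT (-1.33 ± 0.17, adjusted p = 0.000171). Its partner Casp9 (-1.28 ± 0.23, adjusted p = 0.000866), Dffa, the inhibitor of the nuclease that cuts DNA (-1.17 ± 0.19, adjusted p = 0.000472), and Parp1, a caspase substrate (-0.83 ± 0.17, adjusted p = 0.00185), were lower too. Of 5 inhibitor of apoptosis genes, 2 fell, Xiap (-1.49 ± 0.19, adjusted p = 0.00016) and Birc6 (-1.33 ± 0.19, adjusted p = 0.00026). With the offset these differences were -0.79 for Apaf1, -0.71 for Xiap and -0.79 for Birc6, each still called.

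Of 7 genes listed as outer membrane partners, 4 fell, and with the offset 2 did. Over all genes 24.0% were called lower and 29.9% higher, or 24.6% and 27.0% with the offset. The 4 were the channel genes Vdac1 (-0.70 ± 0.14, adjusted p = 0.00153) and Vdac2 (-0.50 ± 0.14, adjusted p = 0.0108), Mff, which aids fission (-0.81 ± 0.16, adjusted p = 0.00137), and Opa1, which shapes the inner membrane (-0.77 ± 0.17, adjusted p = 0.00294). Of 9 death receptor genes, 2 rose, Fas (0.56 ± 0.17, adjusted p = 0.0146) and Tradd (0.62 ± 0.18, adjusted p = 0.0134), and 2 fell, Ripk1 (-0.57 ± 0.18, adjusted p = 0.0177) and Cflar, which restrains caspase-8 (-0.70 ± 0.16, adjusted p = 0.00409). Among 9 other BCL2 family genes, Bcl2l13 fell as given above, and Bnip3l (-0.78 ± 0.18, adjusted p = 0.00353) and Bnip3 (-1.33 ± 0.45, adjusted p = 0.0276), receptors for the removal of mitochondria, were lower. With the offset Mff, Opa1, Ripk1, Tradd and Cflar were not called (adjusted p from 0.143 to 0.914). Bok, an effector relative of Bax, was called higher from few reads, with 20, 20 and 38 counts in METTL3 KO, against 1, 3 and 0 counts in WT (adjusted p = 0.00108).

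Genes known to set levels of the family had 8 of 19 lower and 1 higher, where 24.0% and 29.9% of all genes were. With the length and GC offset 8 were lower and 2 higher, where 24.6% and 27.0% of all genes were. Tcf12, an E protein, had 182, 246 and 171 CPM in METTL3 KO, against 631, 615 and 755 CPM in WT (-1.74 ± 0.18, adjusted p = 7.71e-05). Usp9x, which protects MCL1 protein from breakdown, fell (-1.79 ± 0.24, adjusted p = 0.00019), and Fbxw7, part of a ligase that marks MCL1 protein for breakdown, rose (0.88 ± 0.17, adjusted p = 0.00135). Stat5b, which carries cytokine survival signals (-0.87 ± 0.16, adjusted p = 0.000956), and Foxo3, an activator of Bcl2l11 (-0.82 ± 0.15, adjusted p = 0.00107), fell. Huwe1 of the same list, the gene of another ligase for MCL1 protein, went the other way from Fbxw7, at -0.83. With the offset it stood at -0.44 (adjusted p = 0.0128). With the offset Tcf12 stood at -1.20 and Usp9x at -1.02, both still called. RNA counts do not measure the MCL1 protein.

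Genes whose pattern was most like that of a pro-survival member were found over the 10 libraries with an age, as the root mean square difference of log2 CPM after centring each of 10720 genes of at least 5 CPM on its own mean. For Bcl2 they were Ephx1 (0.092), Rin3 (0.106) and H2-K2 (0.117), where Bcl2 itself departed from its own mean by 0.347. For Bcl2l1 they were Plekha3 (0.035), Sec11c (0.051) and Mtf2 (0.052), and for Mcl1 they were Gm20488 (0.051), Mgat2 (0.058) and Wbp1l (0.059), where the members departed from their means by 0.084 and 0.112. The Bcl2 pattern is mainly the height of old WT replicate 3, and those of Bcl2l1 and Mcl1 are nearly flat, so likeness to them means little change.

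METTL3 methylates adenines within a consensus that GGACT fits best, and the longest protein-coding transcript of each member was searched for it. GGACT occurred 2.34 times per kb in Mcl1 (8 sites), 2.73 in Bax (3 sites) and 2.76 in Bbc3 (5 sites), above the upper quartile of 1.5 per kb over 21901 genes. Bad (1.96), Bid (1.83) and Bak1 (1.68) were above that quartile as well. Bcl2 had 1.25 per kb (9 sites) and Bcl2l1 1.17 (3 sites), near the median of 1.01, and Bcl2l11 had 0.99 and Pmaip1 0.73. Of the genes rich in the motif, Mcl1 was lower, Bax higher and Bbc3, Bad, Bid and Bak1 not called between METTL3 KO and WT without an age. A match of letters is not a methylated site, and m6A was not measured in these files.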

How the data were processed

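Total RNA of sorted thymic DP cells was sequenced in 16 libraries. The aligner was HISAT2 2.0.5 with mm10, per the submitters' processing notes. Neither the counting program nor its annotation and strand setting is given in the sources used here. Each file, as the authors deposited it, has 1 whole-number read count per gene and 5 summary lines, which made up 56.77% to 72.72% of entries and were left out of library sizes and tests. Symbols matched 55154 of 55335 identifiers in files with an age and 54409 of 54532 in the others. Gene features came from GENCODE M21 on mm10.

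Groups follow the labels. Counts were tested with edgeR 4.0.16 (limma 3.58.1, R 4.3.3): filterByExpr, TMM, robust quasi-likelihood fit, two-sided, Benjamini-Hochberg over all genes, threshold 0.05. The age and young METTL3 KO comparisons share young WT and 1 fit of 10 libraries, the comparison without an age used 6 libraries, and the interaction 12. SEs and 95% intervals cover the spread between libraries. Alternatives were DESeq2 1.42.0 and its size factors, library size alone, no filter, 1 CPM in 3 libraries, limma-voom, a block for the replicate number, a separate fit of each pair of groups and each library left out. The GC and length offset, and the overlap of groups and the list values without old WT replicate 3, were chosen later, with the data in view. Scripts were tested on simulated counts with known changes. Of 2-fold changes, 86% were called for age, 84% for young METTL3 KO and 42% without an age. Of 1.5-fold changes, 47%, 32% and 4% were called in the same order. For the interaction these shares were 42% and 2%. A gene not called may therefore still differ by such amounts. The 10 genes, the lists and the rules were chosen with earlier results of these data known. All 10 members are named. Of each list the text names up to 4 called genes with the smallest p, or some of the 2 with the smallest p where none was called. Fbxw7, the 1 gene of its list that was called higher, and Huwe1 were named after their values were seen. Genes overlapping Bad, Bid, Bcl2 and Bak1 on the other strand are named beside a result. A gene of these lists is not reported here. Python 3.11.15 with pandas 2.3.3 and matplotlib 3.10.9 prepared tables and figures.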

Additional observations from a re-analysis of the deposited data

Results flagged for a closer look

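For 3 members the difference between METTL3 KO and WT differed between the set without an age and the young set, by a test of the interaction in edgeR. Bax differed by 1.13 on the log2 scale: METTL3 KO without an age had 80.5 ± 22.3 CPM and its WT 35.6 ± 6.83, while young METTL3 KO had 13.3 ± 1.24 and young WT 11.5 ± 0.898 (SD, n = 3 each). For Mcl1 the value was -0.62, with 402 ± 57.3 CPM in METTL3 KO without an age and 661 ± 41.7 in its WT, and 600 ± 12.2 in young METTL3 KO and 569 ± 24.4 in young WT. For Bcl2 it was 0.69, with 41.2 ± 3.56 CPM in METTL3 KO without an age and 26.4 ± 2.80 in its WT, and 30.7 ± 4.71 in young METTL3 KO and 28.2 ± 1.51 in young WT. The sets differ in the share of entries not aligned and in the Mettl3 count of the KO libraries, and set and processing cannot be told apart. Among the 10 members in the 4 old WT libraries, no library lay farther from the others than Dixon's test allows, and the gap of replicate 3 in Bcl2 was 0.767 of the range.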

How the results depend on the processing

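For age and for young METTL3 KO, 0 of the 10 members were called in every alternative run, including each library left out. Counts of all genes called with age, 36 in the fit reported, were 85 with no filter, 153 with DESeq2, 61 with the replicate block, 11 with only the groups compared and 8 to 59 with 1 library left out. For young METTL3 KO, 1 gene was called with no filter. Without an age, 3 to 6 members were called with 1 library left out (3 without WT replicate 2), and Bid turned to -0.37 (adjusted p = 0.0493) with the GC and length offset. The interaction had 5 members called with no filter and 3 to 5 with 1 library left out (5 without METTL3 KO replicate 2). The causes were not tested. Deviations of same-numbered libraries from their group means had correlations of -0.229 to 0.087, and those of other pairs -0.197 to 0.324. With 3 same-numbered pairs per comparison, this cannot show whether the numbers pair the samples. The block left 0, 0, 5 and 3 members called in the 4 comparisons and changed no member's call. Of single differences, 326 stayed on their side of the threshold, 11 of them uncalled values that changed sign, 5 lost a call, 8 gained one, and 33 levels per kb moved by over 1 SD with the longest transcript as length. With 1 library left out, 349 stayed on their side, 27 of them uncalled values that changed sign, 14 lost a call and 17 gained one. With no filter the median of all genes without an age was 0.53, against 0.08. Depth limits genes of few counts, such as Pmaip1.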
